A study of Mus musculus with 12 samples.

Results

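Differentiation of control MC3T3-E1 cells was followed as the change between day 14 and day 0, across all expressed genes. The members were the 4 control libraries of those days, 2 at day 14 and 2 at day 0, of 12 libraries in all, chosen by the arm and the day in their labels. Of 55291 genes in the deposited table, 16103 had enough counts to be tested. MC3T3-E1 is a preosteoblast line established from newborn mouse skull. Day 0 was 2 days after confluence in medium with 10% serum, and the day 14 cultures were differentiated from then without interferon. The series also holds control cultures at day 21 and a second arm given mouse interferon beta (IFN) at 50 mg/L per the labels, sampled at days 0, 14 and 21. The labels do not list the components of the differentiation medium, do not say whether the day 0 cultures of the IFN arm had met IFN, and do not say whether the 2 libraries of a group came from separate cultures. P-values therefore measure the spread between these libraries, which may be technical.

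Osteoblasts build bone by first laying down a collagen matrix and then filling it with mineral. The transcription factors RUNX2 and, downstream of it, osterix (Sp7) set cells on this path, alkaline phosphatase (Alpl) frees phosphate for mineral, and bone sialoprotein (Ibsp) and osteocalcin (Bglap) are secreted into the mineralizing matrix. Cells usually leave the cell cycle as they mature. Glucocorticoids act on these cells through a receptor that enters the nucleus and switches on a small, well known set of genes, among them Fkbp5 and Tsc22d3.

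The label of the cells was checked against 6 preosteoblast genes. Runx2 had 78.6 and 126 CPM (the gene's count relative to the TMM-scaled total of its library) at day 14, against 99.8 and 108 CPM at day 0. The chief bone collagen gene Col1a1 had 6607 and 3892 CPM at day 14, against 2573 and 5953 CPM at day 0. Postn, a matrix protein of the bone surface, had 4137 and 7824 CPM at day 14, against 1319 and 2305 CPM at day 0. Twist1, a transcription factor of mesenchymal cells, had 78.8 and 72.2 CPM at day 14, against 50.2 and 72 CPM at day 0. Sp7 and Alpl, whose levels follow below, were detected in every library too. Total counts ran from 31845405 to 38908453 in the 4 libraries, and from 29772425 to 38908453 in all 12.

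The replicates of the control arm did not lie close together. The median SD of log2 CPM between 2 replicates was 0.237 at day 14 and 0.292 at day 0, against 0.0877 and 0.0839 in the IFN arm on the same days. One of the day 0 libraries stood apart: replicate 1 correlated with the other 3 day 0 libraries of both arms at 0.967 to 0.970, while replicate 2 correlated with those of the IFN arm at 0.988 and 0.989. Ribosomal RNA was uneven: the rRNA gene CT010467.1 had 8629 and 99.2 CPM at day 14, against 21075 and 1103 CPM at day 0. Control day 21 replicate 2 held 25659 CPM of the stress chaperone gene Hspa5, against 563 to 1827 CPM in all other libraries. It enters the comparison of day 14 with day 0 only through the filter on counts, the TMM scaling and the estimate of spread. The part of these differences in the results was not tested, and calls with and without the libraries concerned are given below.

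At day 14, 34 genes passed an adjusted p below 0.05 (edgeR quasi-likelihood test, Benjamini-Hochberg adjustment), which is 0.211% of the genes tested. Of these, 33 were higher at day 14 (0.205%) and 1 was lower (0.00621%). Among the genes that rose were the glucocorticoid targets Fkbp5, Tsc22d3 and Zbtb16, the bone and matrix genes Ibsp, Tnn, Tnc, Smoc1 and Mmp13, and genes of secreted inhibitors such as Wif1 and Il1rn. These examples were picked after the calls were seen, and 24 of the 34 stood on no gene list. The gene that fell was Atp1b1, the beta subunit of the sodium and potassium pump. In all 34, both day 14 libraries lay on one side of both day 0 libraries, which held for 43.1% of all genes tested.

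The number of calls depended on which libraries entered the fit. The spread between replicates (biological coefficient of variation) was 0.380 in the control fit, 0.0635 in the IFN fit and 0.280 with all 12 libraries. For this reason the main fit left the IFN libraries out. The fit of all 12 libraries, also used for the interaction below, tests control with the smaller pooled spread. How far this changed the calls was not tested. With all 12 libraries in the fit 411 genes were called (2.38%), 268 higher (1.55%) and 143 lower (0.827%). With the 4 libraries alone there were 105 (0.685%), 83 higher (0.541%) and 22 lower (0.144%). DESeq2 called 367 (2.29%), 270 higher (1.68%) and 97 lower (0.605%). All 34 genes were called in each of these fits. An unadjusted p below 0.05 was reached by 1317 genes (8.18%), 765 higher (4.75%) and 552 lower (3.43%). Without day 0 replicate 1 no gene was called by edgeR (752 had an unadjusted p below 0.05), and without day 0 replicate 2 there were 3 calls, 2 of them among the 34. Leaving out day 14 replicate 1 gave 29 calls, 24 of them among the 34. Leaving out day 14 replicate 2 gave 59 calls, and leaving out day 21 replicate 1 or 2 gave 123 or 129, with 27, 33 and 33 of the 34 among them. Without both outlying libraries (day 0 replicate 1 and day 21 replicate 2) 47 genes were called, 17 of them among the 34. Below, "called" means the 6-library control fit unless the 12-library fit is named.

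**Figure D1:**
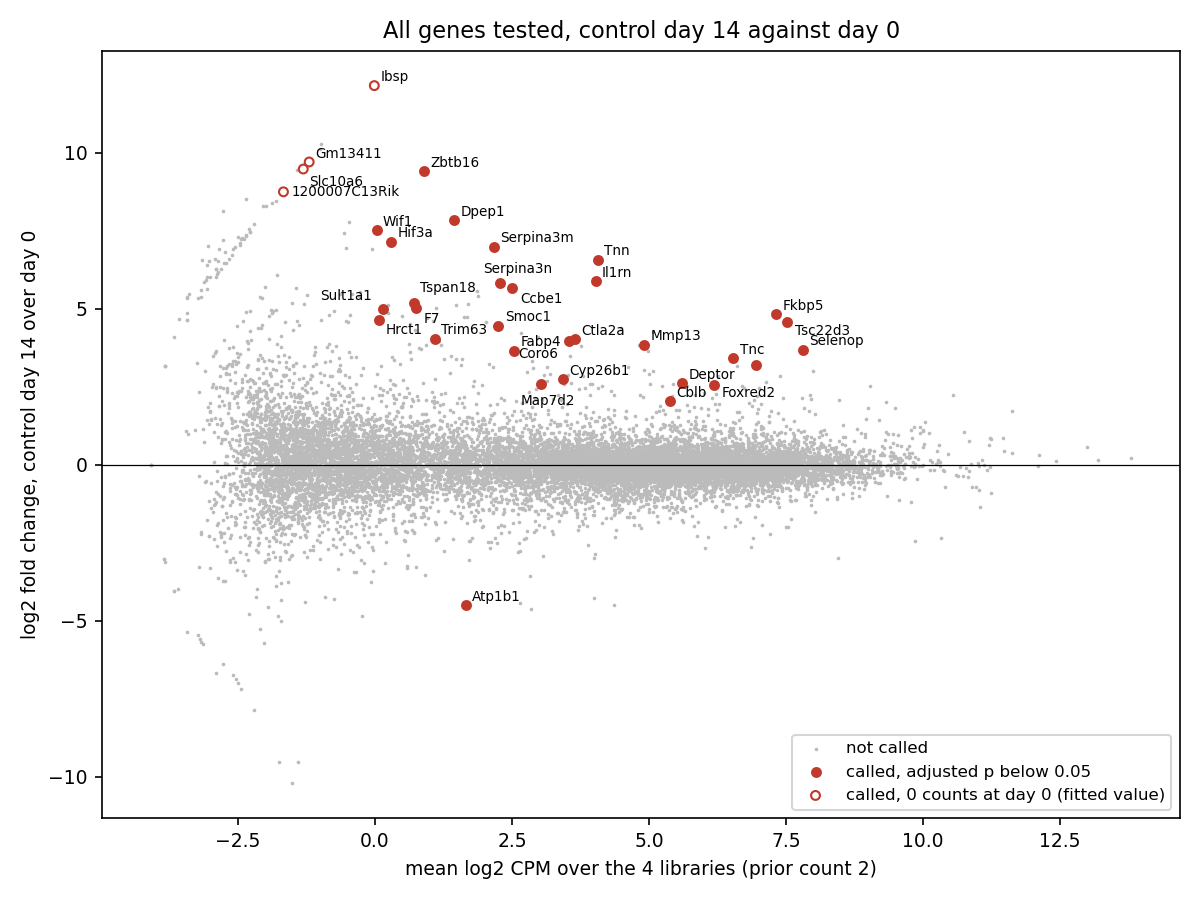
Each point is 1 of 16103 genes, placed by its mean log2 CPM over the 4 libraries (x) and its log2 fold change, control day 14 over control day 0 (y). Of the 34 called genes, 33 above and 1 below the line at 0, all but 1 are named, and open circles mark genes with 0 counts in both day 0 libraries, whose plotted fold depends on the prior count.

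On a list of 16 glucocorticoid targets 3 genes were called. Fkbp5 encodes a co-chaperone of the glucocorticoid receptor (chr17:28399094-28517527, minus strand, GRCm38). It had 1027 and 692 CPM at day 14, against 27.5 and 33.5 CPM at day 0, a log2 fold change of 4.82 ± 0.44 (SE; adjusted p = 0.00578, edgeR). Tsc22d3, the glucocorticoid-induced leucine zipper (chrX:140539528-140600659, minus strand), had 1074 and 731 CPM at day 14, against 34.1 and 41.6 CPM at day 0 (log2 fold change 4.58 ± 0.38, adjusted p = 0.00471, edgeR). Both genes were far higher in each day 14 library than in either day 0 library, as the plot of levels by library shows. Zbtb16, a zinc finger transcription factor (chr9:48654297-48836222, minus strand), had 57.0 and 22.3 CPM at day 14, against 0 and 0.101 CPM at day 0, where it rested on 4 counts (log2 fold change 9.42 ± 0.87, adjusted p = 0.00673, edgeR).

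Of the 16, these 3 were called higher (0.205% over all genes) and 0 lower, and 10 were called higher and 0 lower with all 12 libraries in the fit, where the share of all genes called higher was 1.55%. The other 7 of the 10 were Errfi1, Glul, Lcn2, Mt1, Pdk4, Per1 and Sgk1. Their log2 fold changes lay between 1.40 and 4.40 and their adjusted p between 0.0579 and 0.333 in the control fit (edgeR). Both day 14 libraries lay above both day 0 libraries in 14 of the 16 (21.6% over all genes). Dusp1, a phosphatase that is also an immediate early gene, was the 1 member on the other side, with 68.0 and 40.8 CPM at day 14, against 86.2 and 341 CPM at day 0. Across the list the median log2 fold change was 2.00, against -0.0034 over all genes tested, and it stayed between 1.77 and 2.10 when any 1 control library was left out.

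Sgk1, a kinase that regulates ion transport, had 440 and 482 CPM at day 14, against 106 and 105 CPM at day 0. Its log2 fold change was 2.13 ± 0.44 with an adjusted p of 0.143 in the control fit and 0.00944 with all 12 libraries (edgeR). The 2 groups were well apart and the replicates close. Sgk1 is shown because it was the 1 gene, of 11147 tested genes with a RefSeq promoter entry, that held the palindromic glucocorticoid receptor motif (AGAACA, 3 bases of any kind, TGTTCT), looked for on both strands in the 250 bases before each start. The motif was in 3 of 32851 promoters (0.00913%) and in 1 of 22 promoters of the 13 list genes that have an entry. The stretch is at chr10:21993640-21993889, plus strand (RefSeq, GRCm38.p6), from 1 of 6 Sgk1 promoters, and capitals mark the motif, from base 189 to base 175 before the start:
Sgk1: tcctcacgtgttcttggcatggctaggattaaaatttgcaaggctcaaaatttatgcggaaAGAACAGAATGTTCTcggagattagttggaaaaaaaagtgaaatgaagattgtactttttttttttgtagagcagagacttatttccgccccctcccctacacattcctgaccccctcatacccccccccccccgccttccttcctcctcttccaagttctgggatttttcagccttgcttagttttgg
Of the 34 called genes 24 have an entry, and none of their 34 promoters held the full motif, which says only that these letters were not in the window. The shorter AGAACA alone was in 20.6% of those 34 promoters, in 11.2% of promoters of all tested genes and in 16.1% of all promoters.

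**Figure D2:**
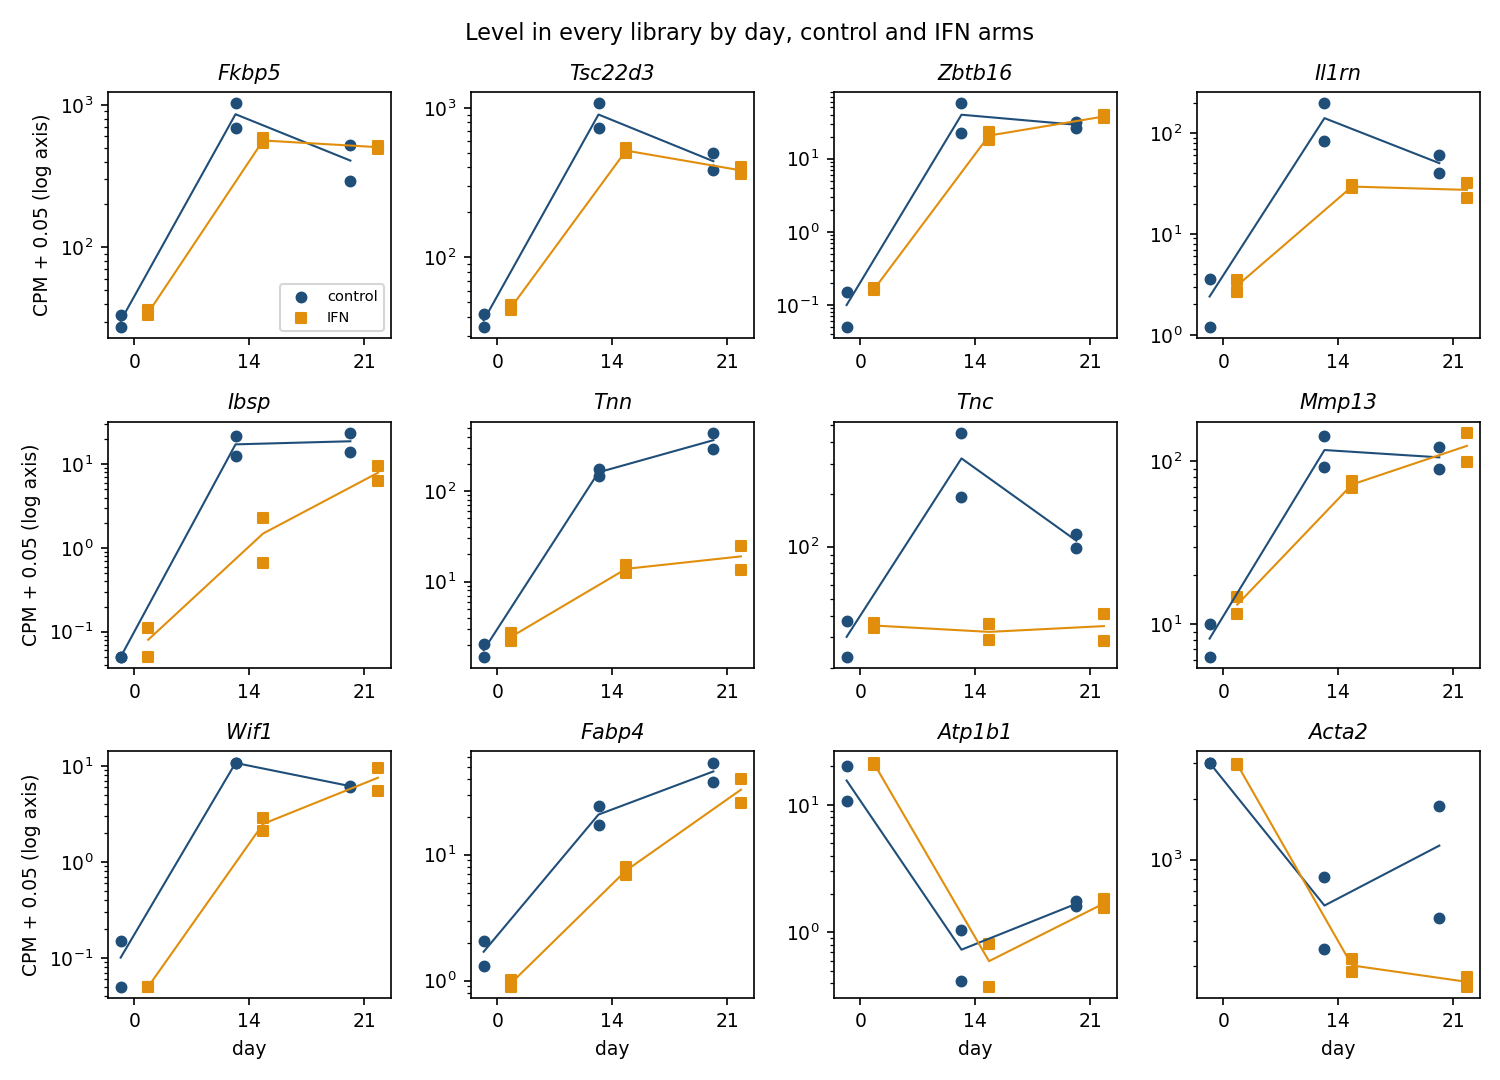
Level of 12 genes in each of the 12 libraries, as CPM plus 0.05 on a log axis, by day, with control libraries as blue circles, IFN libraries as orange squares and lines through the means of 2. Fkbp5 stands at 1027 and 692 CPM in control at day 14 and at 27.5 and 33.5 CPM at day 0. Acta2 and Atp1b1 run the other way.

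Serpina3m, Serpina3n, Il1rn and its neighbour Gm13411 were called higher. Serpina3m, a serine protease inhibitor of the antichymotrypsin type (chr12:104338486-104394257, plus strand), had 53.9 and 41.9 CPM at day 14, against 0.338 and 0.403 CPM at day 0. Its log2 fold change of 6.996 ± 0.408 had an adjusted p of 0.000987 (edgeR). Its neighbour Serpina3n had 37.5 and 39.0 CPM at day 14, against 0.277 and 1.06 CPM at day 0 (log2 fold change 5.81 ± 0.72, adjusted p = 0.0267, edgeR). The 2 genes belong to a family of close copies, so reads may have been split between them. Il1rn encodes the natural antagonist of the interleukin 1 receptor (chr2:24336853-24351494, plus strand). It had 83.3 and 197 CPM at day 14, against 1.14 and 3.55 CPM at day 0 (log2 fold change 5.89 ± 0.68, adjusted p = 0.0186, edgeR). Gm13411, a non-coding gene at chr2:24322424-24322956 on the same strand upstream of Il1rn, had 3.45 and 2.86 CPM at day 14 and 0 counts at day 0. With 3 counts over both day 0 libraries as the floor it was at least 75.9-fold higher. The strand setting of the counts is not given in the sources used here.

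Of 22 inflammatory and acute phase genes on the list, 0 were called in either direction by edgeR with the 6 control libraries. Of the 22, 6 had an unadjusted p below 0.05 upward (4.75% over all genes) and 4 downward (3.43%). DESeq2 called 4 higher (1.68%) and 1 lower (0.605%). Both day 14 libraries lay above both day 0 libraries in 8 (21.6%) and below in 10 (21.5%), and the list's median log2 fold change was 0.13. With all 12 libraries 4 were called higher (1.55% over all genes) and 1 lower (0.827%). Lcn2, an iron-scavenging acute phase protein that is also on the glucocorticoid list, had 107 and 100 CPM at day 14, against 3.75 and 6.07 CPM at day 0 (adjusted p = 0.0579, edgeR). Orm1, an acute phase plasma glycoprotein, had 4.03 and 6.95 CPM at day 14, against 0.0615 and 0 CPM at day 0. That is 2 counts, and the ratio of counts was 199 (95% exact binomial interval 54.6 to 1646, counting error only). Hp (haptoglobin) had 13.8 and 19.2 CPM at day 14, against 0.369 and 0.856 CPM at day 0, and Lbp, which binds bacterial lipopolysaccharide, had 278 and 181 CPM at day 14, against 13.9 and 49.5 CPM at day 0. The chemokine Ccl7 was the member called lower in that fit, with 8.24 and 22.5 CPM at day 14, against 77.6 and 47.9 CPM at day 0. The complement gene C4b, from a list of 11 tested, was called higher with all 12 libraries.

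Among bone matrix genes Ibsp, which encodes bone sialoprotein (chr5:104299171-104311469, plus strand), was the clearest case. It had 21.96 and 12.5 CPM at day 14 (1135 counts) and 0 counts in both day 0 libraries, so it was at least 414-fold higher, with 3 counts over the day 0 group as the floor (adjusted p = 0.00578, edgeR). It was the 1 member called of 11 bone mineral matrix genes tested, against 0.211% over all genes. Bglap, osteocalcin, was barely detected, with 0.397 and 0.753 CPM at day 14 and 0.431 and 0.655 CPM at day 0. Its close copies Bglap2 and Bglap3 lie between 2.17 and 3.19 CPM at day 14 and between 3.73 and 5.63 CPM at day 0, and reads may be shared among the 3 copies. Spp1 (osteopontin) had 5135 and 2624 CPM at day 14, against 1974 and 2346 CPM at day 0, and Mgp, an inhibitor of calcification, had 810.0 and 827 CPM at day 14, against 77.0 and 309 CPM at day 0. Both had non-overlapping groups but adjusted p of 0.717 and 0.335 (edgeR). Dmp1, a phosphoprotein of osteocytes, had 47.3 and 4.34 CPM at day 14, against 26.2 and 86.5 CPM at day 0, and its groups overlapped.

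Of 16 osteoblast transcription factors tested 0 were called by edgeR with 6 libraries, where 0.211% of all genes were, so this count of calls is near the background. Of the 16, 3 had an unadjusted p below 0.05 upward (4.75% over all genes) and 1 downward (3.43%), and DESeq2 called 1 higher (1.68%). Both day 14 libraries lay above both day 0 libraries in 8 (21.6% over all genes) and below in 3 (21.5%). Runx2 had a log2 fold change of -0.02 ± 0.31. Sp7, osterix, had 16.2 and 28.4 CPM at day 14, against 3.91 and 6.67 CPM at day 0. Its log2 fold change of 2.07 ± 0.48 had an adjusted p of 0.211 in the control fit and 0.0185 with all 12 libraries (edgeR). Alpl, alkaline phosphatase, had 10.6 and 20.1 CPM at day 14, against 0.554 and 2.95 CPM at day 0. The groups did not overlap, but the day 0 replicates differed widely, and the log2 fold change of 3.13 ± 0.86 had an adjusted p of 0.314 (edgeR) and 0.000701 in DESeq2. Sox9, the chondrocyte regulator, had 175 and 143 CPM at day 14 and 174 and 106 CPM at day 0 (log2 fold change 0.18 ± 0.31).

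The tenascins and related matricellular proteins, which sit in the matrix and modify adhesion and signalling, held 3 called genes of 17 tested (0.211% over all genes). Tnn, tenascin-W (chr1:160085029-160153580, minus strand), had 175 and 148 CPM at day 14, against 1.42 and 1.96 CPM at day 0. Its log2 fold change was 6.58 ± 0.40 (adjusted p = 0.000987, edgeR), and with Serpina3m it had the smallest adjusted p of all genes. Tnc, tenascin-C (chr4:63959785-64047015, minus strand), had 192 and 451 CPM at day 14, against 23.1 and 37.2 CPM at day 0 (log2 fold change 3.42 ± 0.46, adjusted p = 0.0343, edgeR). Smoc1, a calcium-binding matrix protein (chr12:81026808-81186414, plus strand), had 24.5 and 20.6 CPM at day 14, against 1.42 and 0.629 CPM at day 0 (log2 fold change 4.47 ± 0.60, adjusted p = 0.0343, edgeR). With all 12 libraries 7 of the 17 were called higher (1.55% over all genes) and 2 lower (0.827%). The further ones were Ccn2, Ccn5, Comp and Postn upward and Ccn3 and Fbln5 downward. Ccn3 had 111 and 181 CPM at day 14, against 382 and 1961 CPM at day 0.

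Of 15 fibril-forming and associated collagens 0 were called by edgeR with 6 or with 12 libraries and 0 by DESeq2, while 2 had an unadjusted p below 0.05, both upward (4.75% over all genes). Their median log2 fold change was 0.59, and Col1a1 itself had 0.31 ± 0.55, with overlapping groups. Of 21 genes that modify and cross-link collagen 0 were called in the control fit. Of the 21, 5 had an unadjusted p below 0.05, all upward (4.75% over all genes), and DESeq2 called 3 higher (1.68%). Lox, the cross-linking oxidase, had 4473 and 2285 CPM at day 14, against 803 and 623 CPM at day 0. Lox, P4ha2 and Plod2 were called higher with all 12 libraries (1.55% over all genes). P4ha2 and Plod2, which hydroxylate collagen chains, had 682 and 600 CPM in day 14 replicate 1 but 141 and 194 CPM in replicate 2. Replicate 1 also had the highest median level of the hypoxia list among all libraries, described below. Lum, a small leucine-rich proteoglycan, had 0 counts in both day 14 libraries, against 0.431 and 8.51 CPM at day 0. Its adjusted p was 0.287 in the control fit and 0.0398 with all 12 libraries (edgeR), and its day 0 level came mostly from replicate 2.

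Mmp13, the collagenase of bone remodelling (chr9:7272514-7283331, plus strand), had 91.8 and 143 CPM at day 14, against 6.25 and 9.97 CPM at day 0. Its log2 fold change of 3.85 ± 0.39 had an adjusted p of 0.0103 (edgeR), and it was the 1 called of 17 matrix proteases and inhibitors (0.211% over all genes). With all 12 libraries Mmp11 was called higher (1.55% over all genes) and the inhibitor Timp3 lower (0.827%). Mmp11 had 199.7 and 263 CPM at day 14, against 42.2 and 74.1 CPM at day 0. Timp3 had 480 and 405 CPM at day 14, against 976 and 3854 CPM at day 0. The Mmp13 promoter is shown because it is a known RUNX2 target and the core RUNX motif TGTGGT was in its window, as ACCACA on the printed strand, from base 118 to base 113 before the start (chr9:7272264-7272513, RefSeq GRCm38.p6):
Mmp13: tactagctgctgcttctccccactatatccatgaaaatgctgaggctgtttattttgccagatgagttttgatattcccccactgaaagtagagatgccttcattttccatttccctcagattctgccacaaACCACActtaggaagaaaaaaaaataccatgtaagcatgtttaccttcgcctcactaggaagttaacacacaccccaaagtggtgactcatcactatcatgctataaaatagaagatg
TGTGGT was in 4 of 34 promoters of called genes (11.8%), in 7 of 40 promoters of the bone mineral, phosphate and transcription factor lists (17.5%), in 10.9% of promoters of tested genes and in 14% of all promoters, so its presence in this window is a description only.

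Several called genes act on signalling. Wif1, a secreted protein that binds Wnt ligands, had 10.6 and 10.8 CPM at day 14, against 0 and 0.101 CPM at day 0 (4 counts), and was the 1 called of 23 Wnt pathway genes, where 0.211% of all genes were called (adjusted p = 0.0169, edgeR). Axin2, a feedback gene of that pathway, had 9.30 and 14.2 CPM at day 14, against 2.58 and 4.46 CPM at day 0. The coreceptor gene Lrp5 had 526 and 399 CPM at day 14, against 130.1 and 167 CPM at day 0. Both were called higher with all 12 libraries (1.55% over all genes), and the secreted inhibitor Sfrp2 was called lower (0.827%). Both day 14 libraries lay above both day 0 libraries in 8 of the 23 (21.6% over all genes) and below in 5 (21.5%). Deptor, which binds and restrains mTOR, had 119 and 121 CPM at day 14, against 22.5 and 16.9 CPM at day 0 (log2 fold change 2.61 ± 0.30, adjusted p = 0.0174, edgeR). Cblb, a ubiquitin ligase, and Cyp26b1, which breaks down retinoic acid, rose by 2.05 ± 0.28 and 2.76 ± 0.35 on the log2 scale. Ccbe1, a secreted protein needed for lymphatic growth, had 39.0 and 38.4 CPM at day 14, against 0.831 and 0.705 CPM at day 0 (log2 fold change 5.65 ± 0.43, adjusted p = 0.00354, edgeR). Of 23 BMP and TGF-beta genes 0 were called. Of these 23, 5 had an unadjusted p below 0.05 (8.18% over all genes) and DESeq2 called 1 (2.29%). In the Notch list of 8 the ligand Dll1 was called lower with all 12 libraries (0.827% over all genes). It had 2.65 and 3.04 CPM at day 14, against 17.6 and 12.4 CPM at day 0.

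Other called genes belong to metabolism, transport and the cytoskeleton. Selenop, the selenium transport protein, had 629 and 1017 CPM at day 14, against 51.8 and 75.8 CPM at day 0 (log2 fold change 3.69 ± 0.38, adjusted p = 0.0109, edgeR). Fabp4, a fatty acid binding protein, had 24.5 and 17.0 CPM at day 14, against 2.03 and 1.26 CPM at day 0 (adjusted p = 0.0184, edgeR). It was the 1 called of 7 adipocyte markers tested (0.211% over all genes), and the summed level of all 13 listed was 159 and 99.0 CPM at day 14, against 88.5 and 103 CPM at day 0, so the list did not separate the groups. Dpep1, a membrane dipeptidase, had 44.4 and 27.8 CPM at day 14, against 0.154 and 0.151 CPM at day 0 (log2 fold change 7.85 ± 0.61, adjusted p = 0.00359, edgeR). Slc10a6, a transporter of sulfated steroids, had 2.62 and 2.77 CPM at day 14 and 0 counts at day 0, at least 64.9-fold higher, and 1200007C13Rik, a non-coding gene, was at least 39.0-fold higher on the same floor. Sult1a1, a sulfotransferase, rose by 5.01 ± 0.72 on the log2 scale, F7 (coagulation factor VII) by 5.03 ± 0.69, Hif3a (a hypoxia-inducible factor subunit) by 7.16 ± 0.97 and Trim63 (a ubiquitin ligase known from muscle atrophy) by 4.05 ± 0.58. Among structural genes Coro6 (an actin-binding coronin) rose by 3.96 ± 0.34, Map7d2 (a microtubule-associated protein) by 2.59 ± 0.35 and the tetraspanin Tspan18 by 5.19 ± 0.63. Foxred2, Ctla2a and Hrct1 rose by 2.57 ± 0.29, 4.03 ± 0.42 and 4.65 ± 0.62. Atp1b1 (chr1:164437109-164458355, minus strand) had 0.366 and 0.994 CPM at day 14, against 10.7 and 20.2 CPM at day 0 (log2 fold change -4.50 ± 0.64, adjusted p = 0.0438, edgeR).

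Most members of the cell cycle lists had lower values at day 14, with 0 calls in the control fit. Of 28 genes of mitosis and G2, 25 had both day 14 libraries below both day 0 libraries, and of 27 genes of DNA replication 22 did, where 21.5% of all genes did. The median log2 fold change was -1.05 in each list. By edgeR 0 members of either list were called, 9 and 15 had an unadjusted p below 0.05, all downward (3.43% over all genes), and DESeq2 called 0. With all 12 libraries Prim1, a primase subunit, and Slbp, the histone mRNA binding protein, were called lower (0.827% over all genes). Mki67, which marks cycling cells, had 73.8 and 135 CPM at day 14, against 305 and 161 CPM at day 0, and its log2 fold change of -1.16 ± 0.50 had an adjusted p of 0.609 (edgeR). The day 0 replicates were unequal: the median log2 CPM of the mitosis list was 4.58 and 4.68 in the day 14 libraries, and 6.08 and 5.13 in the day 0 libraries. Leaving out a control library moved that list's median log2 fold change between -1.44 and -0.46. In such bulk samples fewer cycling cells and less mRNA per cell cannot be told apart.

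Ube2c, the ubiquitin-conjugating enzyme of the anaphase-promoting complex, had the smallest p of the mitosis list, with 29.0 and 26.1 CPM at day 14, against 121 and 38.3 CPM at day 0 (adjusted p = 0.484, edgeR). Its promoter is shown for the 2 motifs common in such genes. The CCAAT box was in 22 of 24 promoters of the mitosis list (91.7%), in 17 of 24 of the replication list (70.8%), in 35.4% of promoters of tested genes and in 33.8% of all promoters. TTTGAA, the core of the cell cycle genes homology region, was in 33.3% of the mitosis promoters, 11.2% of those of tested genes and 16% of all. Capitals mark 6 matches to CCAAT, of which 2 overlap, and 1 to TTTGAA at bases 29 to 24 before the start, each on either strand (chr2:164769679-164769928, plus strand, RefSeq GRCm38.p6):
Ube2c: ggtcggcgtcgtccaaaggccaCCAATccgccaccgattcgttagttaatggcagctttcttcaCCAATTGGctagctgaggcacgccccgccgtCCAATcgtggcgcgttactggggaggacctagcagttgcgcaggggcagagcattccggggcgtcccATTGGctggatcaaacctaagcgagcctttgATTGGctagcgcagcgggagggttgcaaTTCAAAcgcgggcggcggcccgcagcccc

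**Figure D3:**
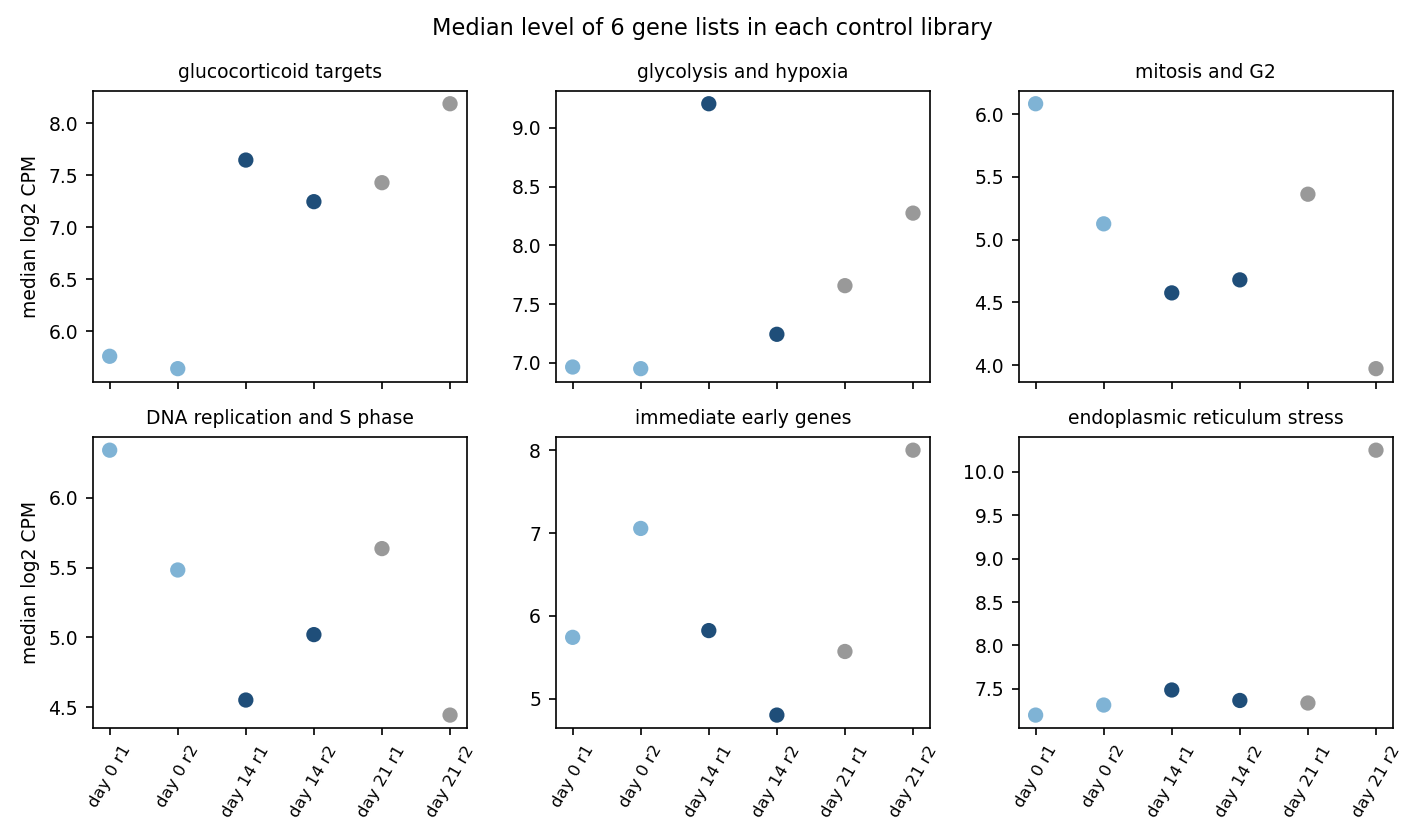
Median log2 CPM of 6 gene lists in each of the 6 control libraries, ordered by day, with 1 point a library. Glucocorticoid targets stand at 7.65 and 7.25 at day 14 and 5.76 and 5.64 at day 0. The glycolysis list is highest in day 14 replicate 1 and the endoplasmic reticulum stress list in day 21 replicate 2.

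Of 13 smooth muscle and contractile genes 9 had both day 14 libraries below both day 0 libraries (21.5% over all genes) and 4 had both above (21.6%). In the control fit 0 were called by edgeR (7 had an unadjusted p below 0.05 downward, against 3.43% of all genes, and 2 upward, against 4.75%). DESeq2 called 3 lower (0.605% over all genes), and 4 were called lower with all 12 libraries (0.827% over all genes): Acta2, Myl9, Tpm2 and Lmod1. Acta2, smooth muscle actin, had 365 and 825 CPM at day 14, against 2991 and 3006 CPM at day 0. Myl9, a myosin light chain, had 20.7 and 31.3 CPM at day 14, against 157 and 173 CPM at day 0. Smtn, smoothelin, was called higher with all 12 libraries (1.55% over all genes). It had 275 and 139 CPM at day 14, against 90.3 and 94.6 CPM at day 0. The summed level of the 13 genes was 1441 and 1784 CPM at day 14, against 4616 and 4954 CPM at day 0, and 2 of the 13 were under 1 CPM in all 4 libraries. The part of contractile cells in the other results was not tested.

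Immediate early genes, which respond to serum within minutes, had the lowest median of any list, a log2 fold change of -1.59 over 18 genes, with 0 calls by edgeR (4 had an unadjusted p below 0.05, all downward, against 3.43% of all genes, and DESeq2 called 0). The value leaned on day 0 replicate 2, where the list's median log2 CPM was 7.06, against 5.74 in replicate 1. The IFN day 0 libraries had 7.01 and 7.24, near replicate 2. In the IFN arm the list's median log2 fold change was -1.95, with 14 of 18 called lower (25.5% over all genes) and 3 higher (28.1%). In control Fos had 4.24 and 16.6 CPM at day 14, against 2.21 and 407 CPM at day 0. The list's median log2 fold change there lay between -1.95 and -0.29 when 1 control library was left out. Glycolysis and hypoxia genes leaned on a day 14 library in the same way. Bnip3, a mitophagy receptor induced by hypoxia, had 626 and 91.2 CPM at day 14, against 33.9 and 45.4 CPM at day 0, and the median over 25 genes was 1.22, with a range of 0.31 to 1.82 when 1 control library was left out. None of the 25 was called by edgeR with 6 libraries, although 15 had an unadjusted p below 0.05, all upward (4.75% over all genes). DESeq2 called 3 higher (1.68% over all genes). With all 12 libraries Bnip3 was called higher (adjusted p = 0.0332, edgeR), in a fit that called 1.55% of all genes higher.

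Of 30 interferon-stimulated genes tested 0 were called by edgeR, 6 had an unadjusted p below 0.05 upward (4.75% over all genes) and 1 downward (3.43%), and DESeq2 called 2 higher (1.68%). Their median log2 fold change was 0.67, and it lay between -0.26 and 1.28 when 1 control library was left out. Oas1a, an antiviral enzyme, had the smallest p among them, with 2.78 and 15.9 CPM at day 14, against 0.492 and 1.28 CPM at day 0. Ifnar1, a receptor chain for type I interferon, had 72.4 and 75.9 CPM at day 14, against 91.6 and 92.3 CPM at day 0.

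In all, 39 lists covered 610 tested genes, of which 10 were called, on 6 lists, where 0.211% of all genes tested were called. For 17 of the other 33 lists at least 1 member was called with all 12 libraries, a fit that called 2.38% of all genes. These include Enpp2 (136 and 125 CPM at day 14, 60.7 and 47.0 CPM at day 0), Gclc, Npc1, Psap and Pdgfra upward and Irs1, Eda2r and Ptprz1 downward. Lists with no call in either fit included oxidative phosphorylation, whose 23 genes lay between -0.29 and 0.36 on the log2 scale, cytosolic ribosomal proteins (median 0.29), heat shock chaperones (median -0.18) and cholesterol and fatty acid synthesis (median -0.58).

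**Figure D4:**
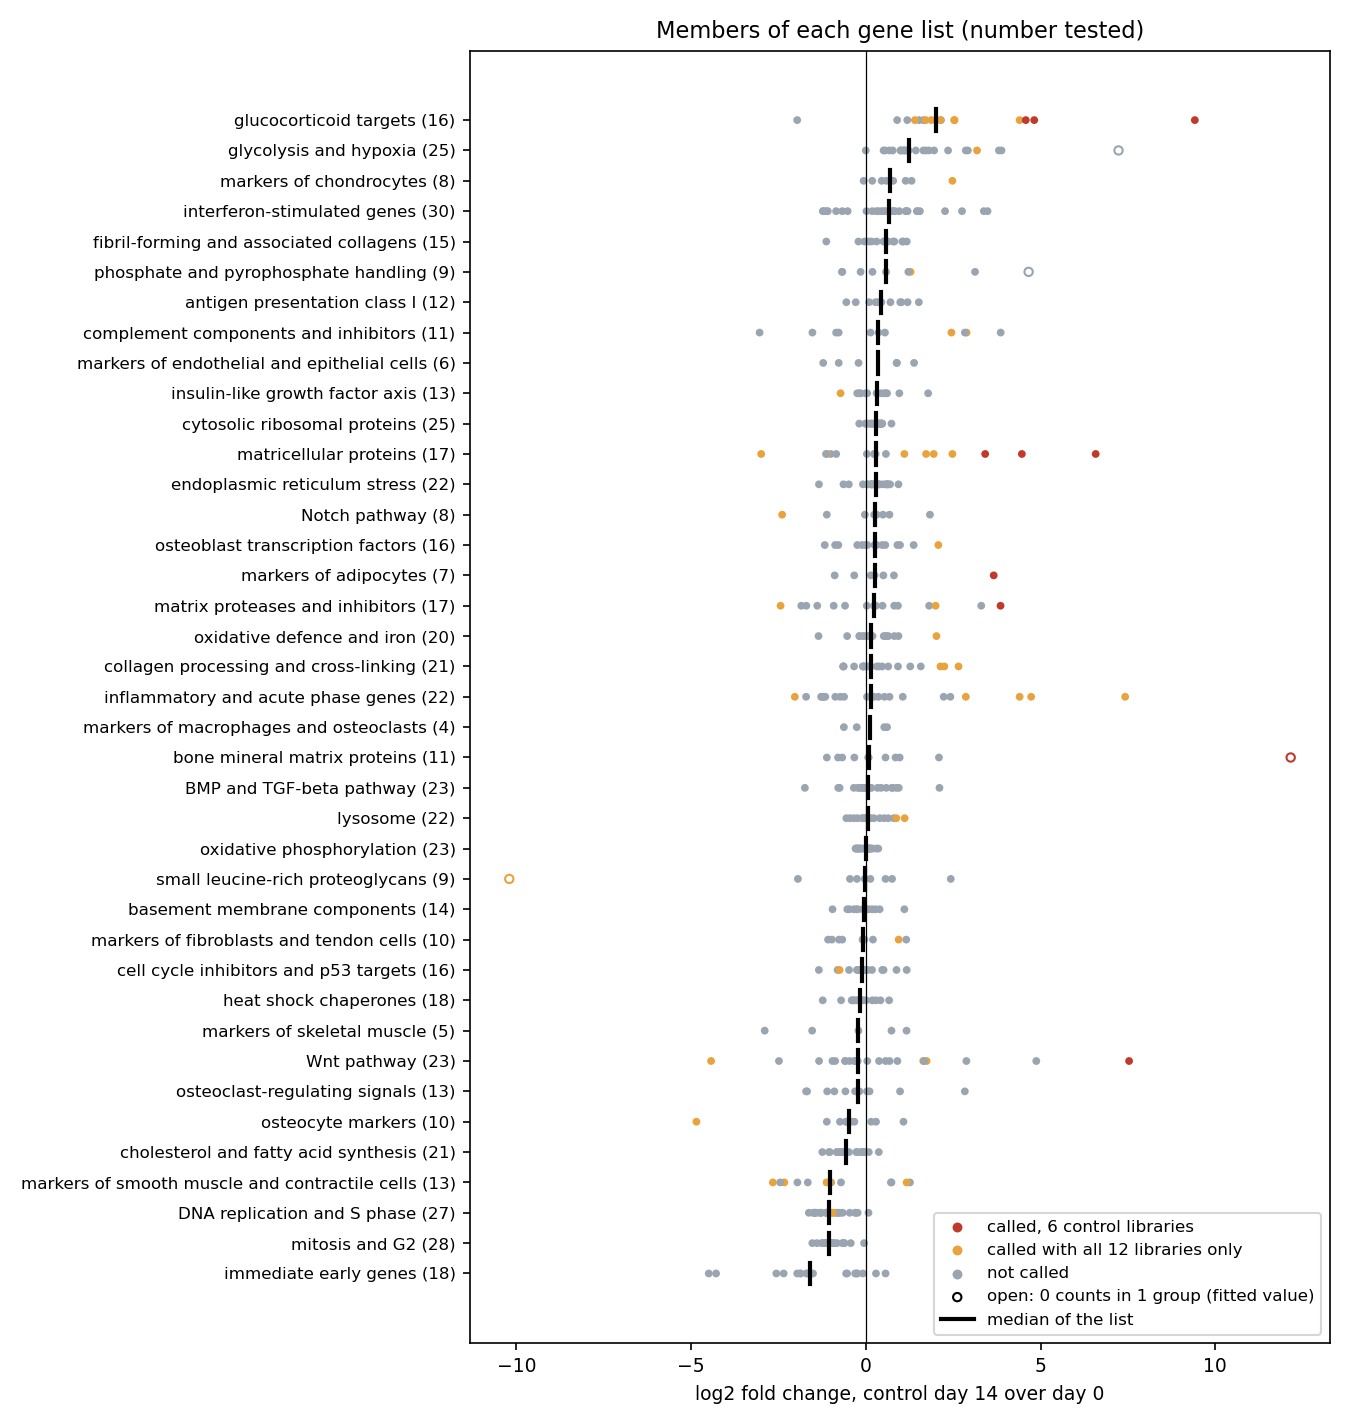
Each point is a tested member of 1 of 39 gene lists, placed by its log2 fold change, control day 14 over day 0, with the number tested in brackets and a black bar at the list's median. Red points were called with 6 control libraries, orange ones with all 12 libraries alone, and open points had 0 counts in 1 group. The glucocorticoid list has the highest median, 2.00, and the immediate early list the lowest, -1.59.

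Markers of other cell types were checked in the 4 libraries. Of 12 skeletal muscle markers 9 were under 1 CPM in all 4 libraries and Myod1, Myf5 and Actn2 were at 0. Among macrophage and osteoclast markers 9 of 12 were under 1 CPM, with Adgre1, Tyrobp and Dcstamp at 0. The summed level was 491 and 332 CPM at day 14, against 335 and 263 CPM at day 0, and came from few genes. Ptprc, Itgam, Acp5 and Calcr were among those too low to test. Among endothelial and epithelial markers 7 of 11 were under 1 CPM, with Epcam and Krt18 at 0, and the sum was 63.2 and 23.8 CPM at day 14, against 25.1 and 16.5 CPM at day 0. Chondrocyte markers summed to 214 and 180 CPM at day 14, against 193 and 134 CPM at day 0. Most of that sum was Sox9, whose levels are given above, and 9 of 16 markers were under 1 CPM, with Col10a1 and Cnmd at 0. Of the 8 tested, 5 had both day 14 libraries above both day 0 libraries (21.6% over all genes) and 0 below (21.5%). Their median log2 fold change was 0.69. Fibroblast and tendon markers summed to 3948 and 3104 CPM at day 14, against 3598 and 4077 CPM at day 0.

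The IFN arm gave the same time contrast in libraries that share no sample with the control arm. There, 8715 of 16259 genes (53.6%) were called between day 14 and day 0, 28.1% higher and 25.5% lower, with replicates that lay much closer together. Of the 34 genes called in control, 30 were called there in the same direction and 0 in the opposite one. Tspan18, Cyp26b1, Gm13411 and Tnc were the 4 not called. Fkbp5 and Tsc22d3 changed by 4.82 and 4.58 in control and by 4.03 and 3.49 in the IFN arm on the log2 scale. Glucocorticoid targets had a median log2 fold change of 2.00 in control and 1.88 in the IFN arm, where 14 of 16 were called higher and 1 lower. The mitosis list had medians of -1.05 and -0.95, with 25 of 28 called lower in the IFN arm.

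The difference between the arms was tested as an interaction over all 12 libraries, control minus IFN, and 103 of 17289 genes passed (0.596%), 28 with a higher value in control (0.162%) and 75 with a lower one (0.434%). Leaving out an IFN library gave 16 to 36 genes, control day 14 replicate 1 or 2 gave 40 or 204, control day 0 replicate 1 or 2 gave 83 or 492, and control day 21 replicate 1 or 2 gave 354 or 344. Of the 34 called genes Tnn and Tnc passed. Tnn rose in both arms, by 6.58 in control and 2.53 in the IFN arm on the log2 scale, and the interaction was 4.05 (adjusted p = 0.00377, edgeR), which passed with any 1 library left out. Tnc had 192 and 451 CPM at day 14 in control and 35.7 and 28.7 CPM at day 14 in the IFN arm, and the interaction was 3.54 (adjusted p = 0.0198, edgeR). That of Tnc did not pass without any 1 of the 4 IFN libraries of days 0 and 14 (adjusted p 0.0797 to 0.122, edgeR) or without control day 0 replicate 1 (0.0716). Interferon-stimulated genes had a median log2 fold change of 0.67 in control and 5.00 in the IFN arm, with all 30 called higher there and 20 passing the interaction. Col1a1 differed by 2.80 (0.31 in control and -2.48 in the IFN arm), and this interaction had an adjusted p of 0.0839 (edgeR). Of the 15 collagens 3 passed it.

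**Figure D5:**
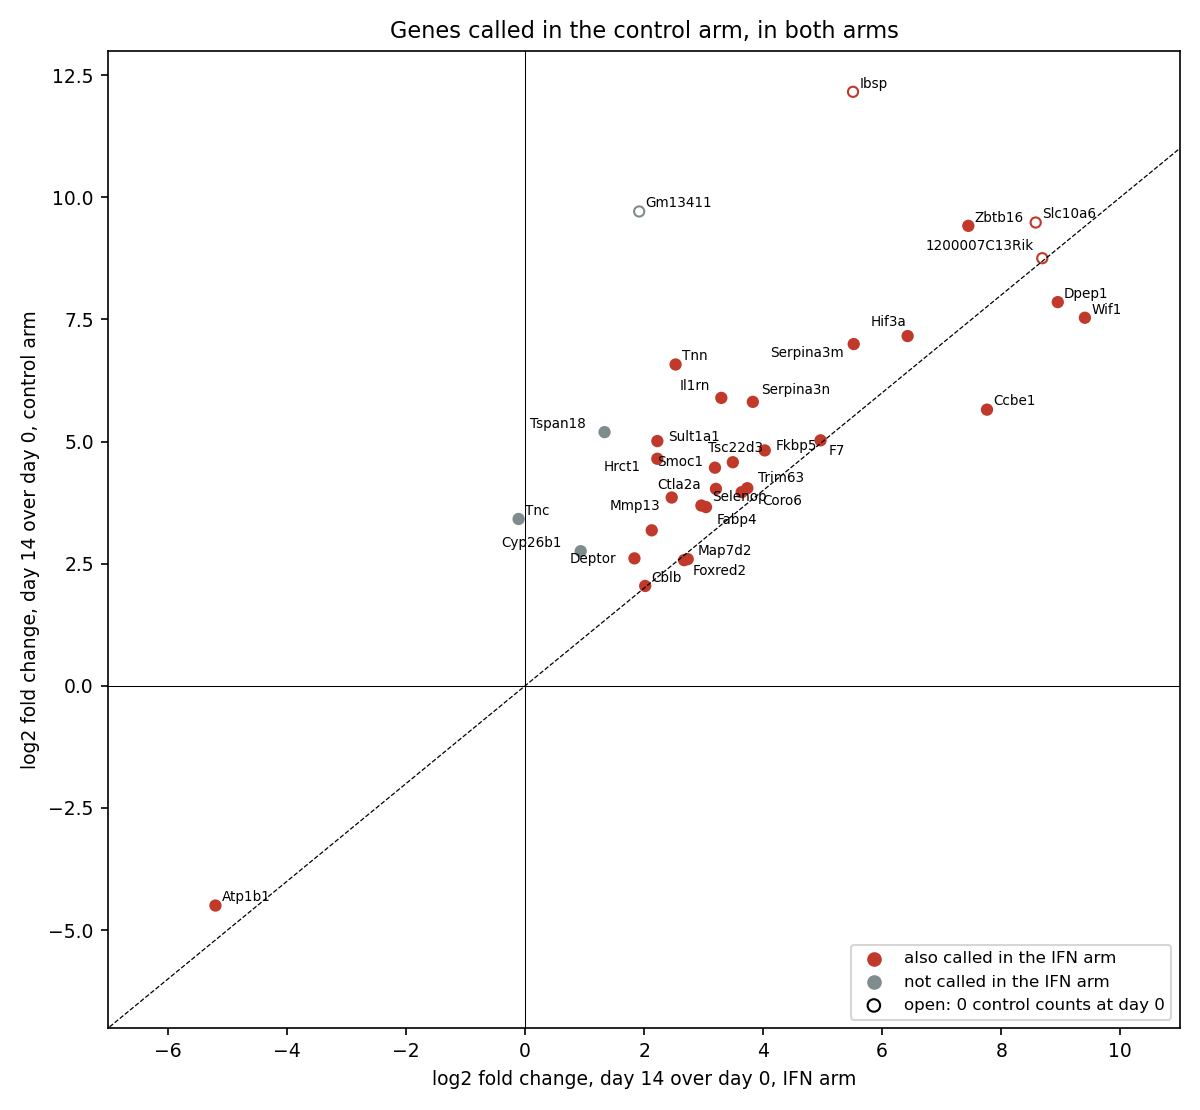
Log2 fold change, day 14 over day 0, of the 34 genes called in control, in the control arm (y) and the IFN arm (x), with equality on the dashed line. The 30 red points were also called in the IFN arm, the 4 grey ones were not, all but 1 are named, and open circles had 0 control counts at day 0.

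Between day 21 and day 14 of the control arm 0 genes were called by edgeR, 1098 had an unadjusted p below 0.05 and DESeq2 called 98. It holds day 21 replicate 2, the library with the high Hspa5 level, and without that library 0 genes were called and 607 had an unadjusted p below 0.05, with the lone day 21 library assumed to vary like the others. This comparison shares the day 14 libraries with the one above. Fkbp5 had 27.5 and 33.5 CPM at day 0, 1027 and 692 CPM at day 14 and 520 and 293 CPM at day 21. Ibsp had 0 and 0 CPM at day 0, 21.96 and 12.5 CPM at day 14 and 23.6 and 13.9 CPM at day 21, so its groups at days 14 and 21 overlapped. Tnn had 1.42 and 1.96 CPM at day 0, 175 and 148 CPM at day 14 and 292 and 442 CPM at day 21. Fabp4 had 2.03 and 1.26 CPM at day 0, 24.5 and 17.0 CPM at day 14 and 37.7 and 53.7 CPM at day 21. Of the 34 called genes, both day 14 libraries lay above both day 21 libraries in 18 and below them in 6. The 34 were selected on these same day 14 libraries, and the share over all genes was not counted.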

How the data were processed

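RNA-seq of 12 MC3T3-E1 libraries was used, 2 in each of 6 groups taken from the labels. Per the labels' protocols mRNA was purified with beads from at least 3 µg of total RNA. Per the submitters' processing notes reads were handled with HISAT2, SAMtools, featureCounts and the mm10 build. Versions, the annotation and the use of strand are not given in the sources used here, so overlapping, antisense and near-identical genes are uncertain. The deposited table holds the authors' unnormalized read count for each gene and library. Of its symbols 53186 are in GENCODE M21, the source of positions, and the 37 mitochondrial symbols have 0 counts.

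The main test was the robust quasi-likelihood test of edgeR 4.0.16 (R 4.3.3) over the 6 control libraries, after filterByExpr and TMM scaling, with a mean for each group and 3 degrees of freedom left for the spread. P-values were adjusted over all genes kept by the Benjamini-Hochberg method. The IFN arm was fitted alone and the interaction over all 12 libraries. The SE is the absolute log2 fold change over the square root of F. CPM uses TMM factors over all 12 libraries, and log2 CPM a prior count of 2. Intervals (95%) and floors of 3 counts cover counting error only. Library totals limit the precision: at totals of 31845405 to 38908453 counts a gene at 0 may still be expressed below that depth.

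Genes named are 9 fixed ones (Runx2, Sp7, Alpl, Bglap, Ibsp, Col1a1, Sox9, Ifnar1, Mki67), the 10 called genes with the highest fold and the 10 with the lowest, among those whose groups do not overlap and whose log2 CPM averages 1 or more, and per list up to 2 called members or else the member with the smallest p. Every other gene was chosen after its values were seen, and 1 called gene and 1 list member are not reported here. The members, lists and rules were all chosen with earlier results of these data known. Lists are given by counts and medians, with no test.

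Alternatives were all 12 libraries, the 4 libraries alone, RLE scaling, library size alone, DESeq2 1.42.0, limma 3.58.1 voom with library weights, no filter, a filter of 1 CPM in 2 libraries, a replicate block, a minimum absolute log2 fold change of 1, and each library left out, where a lone library is assumed to vary like the others. Fits without both outlying libraries, or for day 21 without replicate 2, and the receptor motif were added after seeing the data. The procedure was tested on simulated data. Promoters are RefSeq entries for GRCm38.p6, of which 250 bases before the start were searched.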

Additional observations from a re-analysis of the deposited data

Results flagged for a closer look

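Among the genes named here, Tnn, Tnc and Lmod1 passed the test for a different change in the 2 arms between day 14 and day 0. The test was the interaction over all 12 libraries, which 103 of 17289 genes passed (0.596%). The control minus IFN difference on the log2 scale was 4.05 for Tnn (adjusted p = 0.00377, edgeR), 3.54 for Tnc (adjusted p = 0.0198) and 1.82 for Lmod1 (adjusted p = 0.0331). Tnc had a log2 fold change of 3.42 in control and -0.11 in the IFN arm. As stated above, the Tnc interaction depended on single libraries and that of Tnn did not. The call of Lmod1 was lost without any 1 of the 6 IFN libraries (adjusted p 0.0597 to 0.211, edgeR) or without control day 0 replicate 1 (0.0716). Lmod1, an actin-nucleating protein of muscle, had -1.13 in control and -2.94 in the IFN arm.

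In 4 further named genes every library of control moved one way and every library of the IFN arm the other. Their interaction missed the threshold, so a difference was not shown. Only the named genes were searched, many of them chosen after their values were seen, so no share over all genes is given. The control minus IFN difference was -2.32 for Ccl7 (adjusted p = 0.130, edgeR), 1.93 for Col6a1 (adjusted p = 0.0754), 1.73 for Sesn1 (adjusted p = 0.111) and 1.76 for Smtn (adjusted p = 0.0855). Ccl7 was lower at day 14 in control, and Col6a1, Sesn1 and Smtn were higher.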

How the results depend on the processing

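Every one of the 34 called genes kept its direction under all 17 alternatives. All 34 stayed called with all 12 libraries, the 4 libraries, RLE scaling, library size alone, DESeq2, no filter and the replicate block. The minimum absolute log2 fold change of 1 used the same fit and p-values. The smallest change among the 34 was 2.05 (Cblb), so this setting could alter neither their calls nor their direction. The 4 lost with the 1 CPM filter were Atp1b1, Sult1a1, Trim63 and 1200007C13Rik, and voom lost Zbtb16. The counts moved more. Against 34 (33 higher, 1 lower) they were 411 (268 higher, 143 lower) with all 12 libraries, 105 (83 and 22) with 4 libraries, 56 (53 and 3) with library size alone, 367 (270 and 97) with DESeq2, 113 (82 and 31) with voom, 520 (350 and 170) with no filter, and 30 (30 and 0) with the 1 CPM filter, which leaves fewer genes tested. Without both outlying libraries 47 were called (31 and 16). Leaving out 1 control library gave 0 to 129 calls (0 to 94 higher, 0 to 35 lower), with 0 of the 34 called without day 0 replicate 1. The cause of these shifts was not tested.

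In control the differences between replicates 1 and 2 correlated weakly across days: 0.113 (days 14 and 0), 0.0930 (days 21 and 0) and 0.124 (days 21 and 14). The rRNA gene CT010467.1 was higher in replicate 1 on each day. It had 21075 and 1103 CPM at day 0, 8629 and 99.2 CPM at day 14 and 5914 and 148 CPM at day 21. Whether the replicate numbers mark shared handling was not tested. With the replicate block 108 genes were called (90 higher, 18 lower). In the interaction the block gave 72 calls (15 higher and 57 lower, against 28 and 75), DESeq2 449 (221 and 228), and leaving out 1 library 16 to 492 (1 to 266 higher, 15 to 226 lower). The IFN arm had 1857 calls (895 and 962) when fitted with all 12 libraries.

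Among genes that were not called, some small changes turned sign. Without both outlying libraries the log2 fold change was -0.19 for Bglap, -0.19 for Col1a1 and 0.081 for Cyp51. Leaving out 1 control library gave ranges of -0.45 to 0.47 for Bglap, -0.18 to 1.02 for Col1a1, -1.66 to 0.088 for Cyp51, -1.15 to 0.19 for Lyz2, -0.40 to 0.29 for Runx2 and -0.14 to 0.59 for Sox9. Depth limits genes such as Bglap, below 1 CPM in all 4 libraries.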
